A study of Mus musculus with 2 samples.

Results

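Broad DNase I hotspots of mouse embryonic facial prominence were defined as regions at least 1000 bp wide in one replicate that overlapped a hotspot at least 1000 bp wide in the other. Overlapping ones were merged, which gave 5546 broad hotspots on chromosomes 1 to 19, X and Y, out of 158944 merged hotspots shared by both replicates. The tissue, which builds the face, came from healthy mouse embryos of both sexes, pooled, of strain B6NCrl at embryonic day 14.5. There was 1 group of 2 biological replicates under the same donor record, with no treatment, mutant or second tissue, and it is a mixture of mesenchyme, epithelium and other cell types. DNase-seq finds accessible DNA by digesting nuclei with DNase I and sequencing the released ends. Because the regions were chosen by their width in both replicates, and the width, the q-value and the peak score all come from these libraries, every comparison here is a description without a test. The other 153401 shared hotspots, which overlap no broad one, are called narrower shared hotspots.

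In vertebrate genomes many promoters lie in CpG islands, stretches in which the dinucleotide CpG has escaped the loss seen elsewhere and which are usually free of DNA methylation. Such promoters are typically depleted of stable nucleosomes, and zinc finger proteins with a CXXC domain and GC-box factors of the Sp and Klf families bind there. Distal accessible regions are mostly enhancers and insulators, shorter and poorer in CpG, and are bound by cell-type factors or CTCF. Long accessible stretches over developmental and signalling genes have been described in other tissues as broad promoter domains and as clustered enhancers.

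The accessible core of the widest regions is shown by a 150 bp peak in the 3 widest promoter and the 3 widest distal broad hotspots. It is the peak of each region whose score had the highest mean rank over the 2 replicates. Sequences are RefSeq GRCm38 (mm10 coordinates, plus strand, 5′ to 3′), and capitals mark each CpG. The first 3 are promoter peaks, at chr5:142823576-142823725 (Tnrc18), chr2:18047896-18048045 (Skida1) and chr17:70849776-70849925 (Tgif1). The last 3 are distal peaks, at chr14:21986076-21986225 (Zfp503), chr1:86442556-86442705 (nearest to Tex44) and chr17:17826876-17827025 (nearest to Spaca6).
Tnrc18: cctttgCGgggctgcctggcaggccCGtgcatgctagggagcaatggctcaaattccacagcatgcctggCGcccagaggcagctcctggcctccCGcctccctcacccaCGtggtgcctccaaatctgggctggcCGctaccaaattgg
Skida1: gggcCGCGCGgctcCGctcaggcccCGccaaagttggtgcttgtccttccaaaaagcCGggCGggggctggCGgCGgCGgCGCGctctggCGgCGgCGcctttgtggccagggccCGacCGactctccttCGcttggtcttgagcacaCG
Tgif1: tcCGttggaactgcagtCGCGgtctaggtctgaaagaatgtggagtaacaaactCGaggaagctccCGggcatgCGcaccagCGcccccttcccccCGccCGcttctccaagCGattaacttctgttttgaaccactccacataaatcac
Zfp503: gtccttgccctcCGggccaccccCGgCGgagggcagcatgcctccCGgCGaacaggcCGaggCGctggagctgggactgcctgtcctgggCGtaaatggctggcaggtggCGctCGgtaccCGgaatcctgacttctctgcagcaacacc
Tex44: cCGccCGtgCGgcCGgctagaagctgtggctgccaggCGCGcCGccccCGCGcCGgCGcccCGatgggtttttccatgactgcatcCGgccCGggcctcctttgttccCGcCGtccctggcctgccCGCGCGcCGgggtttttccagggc
Spaca6: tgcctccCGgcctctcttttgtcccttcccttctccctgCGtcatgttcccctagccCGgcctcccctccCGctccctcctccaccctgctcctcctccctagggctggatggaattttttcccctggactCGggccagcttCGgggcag
The Skida1 window held 19 CpG and the Tex44 window 20, although the second lies 16227 bp downstream of the Tex44 start, in intergenic sequence. The Zfp503 window held 11 CpG and the Tgif1 window 10, and the Tnrc18 and Spaca6 windows held 6 each. The Tgif1 window crosses a Tgif1 start site, from 135 bp before it to 14 bp after it. The Tnrc18 window lies between 6063 and 5914 bp upstream of the annotated start, at the far edge of its hotspot. A GC box (GGGCGG on either strand) was found in the Skida1, Tgif1 and Tex44 windows and in none of the others.

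Replicate 1 had 8417 hotspots of 1000 bp or more (3.03% of 277933) and replicate 2 had 6943 (3.50% of 198482). Of these, 5590 (66.4%) in replicate 1 and 5595 (80.6%) in replicate 2 had a broad partner. The broad hotspots covered 9.07 Mb, and their paired hotspots made up 2.01% of all hotspots in replicate 1 and 2.82% in replicate 2 but 9.77% and 13.9% of hotspot length. The median merged width was 1502 bp (quartiles 1269 and 1843 bp), 1006 regions reached 2000 bp, 123 reached 3000 bp and 30 reached 4000 bp. Near the limit, 629 overlapping pairs had a narrower partner of 1000 to 1049 bp and 731 had one from 950 bp to just under 1000 bp, so the limit passes through a continuous range of widths. The deposited −log10 q stood at its ceiling of 100 in 99.9% of paired hotspots in replicate 1 and 99.3% in replicate 2, against 31.3% and 29.2% of all hotspots.

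Where a broad hotspot had 1 hotspot in each replicate (5464 regions), the median ratio of the width in replicate 1 to that in replicate 2 was 1.01, and 2938 (53.8%) were wider in replicate 1. The widths were within 1.5 times of each other in 94.7% and within 2 times in 99.2%, with a Spearman correlation of 0.695 across regions, which share the same libraries and the same lower limit. The widest regions did not all follow this. A replicate's width is the sum of its hotspots within a region. The Skida1 region summed to 2420 bp in replicate 1 and 6791 bp in replicate 2, Bahcc1 to 1345 and 4642 bp, and Six5 to 4042 and 1705 bp. The merged width of such a region is approached in only 1 of the 2 replicates.

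**Figure D1:**
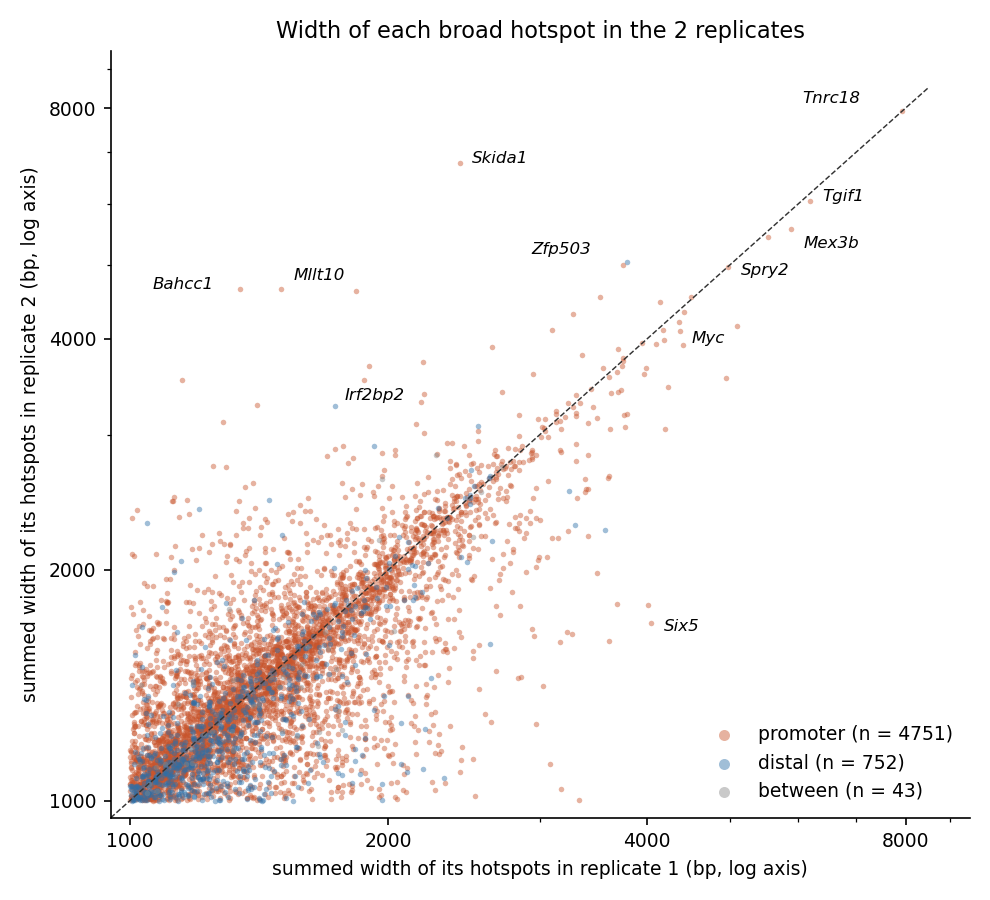
Summed width of the hotspots of each of the 5546 broad hotspots in replicate 1 (x axis) and replicate 2 (y axis), in bp on log axes, coloured by distance to start sites, with the line of equal width dashed. Most points lie along the line, Tnrc18 at its top end (7924 and 7926 bp), while Skida1, Mllt10 and Bahcc1 lie far above it, wider in replicate 2, and Six5 below it, wider in replicate 1.

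Most broad hotspots were promoters. A region was called a promoter when its edge was no more than 500 bp from a start site of any gene in the GENCODE M21 basic annotation, and distal when it lay over 1000 bp from every start. Promoters made up 4751 broad hotspots (85.7%), distal regions 752 (13.6%) and regions between these limits 43 (0.775%). Among narrower shared hotspots the shares were 11.2% promoter, 85.4% distal and 3.35% between, and 2.22% of the main chromosomes lies within 500 bp of a start site. Wide regions also meet more start sites by their length alone, a part that was not tested. The share of promoters was 5.89% in narrower shared hotspots of 200 to 400 bp and 38.8% in those of 800 to 1000 bp. It was 79.7% in broad hotspots of 1000 to 1500 bp, 90.4% at 1500 to 2000 bp, 93.3% at 2000 to 3000 bp and 95.1% at 3000 bp or more. Some shared regions reach 1000 bp after merging without being broad hotspots, since hotspots of that width from both replicates did not overlap there. Their promoter shares were 55.7% at 1000 to 1500 bp (4240 regions), 70.8% at 1500 to 2000 bp (542 regions) and 84.8% at 2000 to 3000 bp (105 regions), each below the share in broad hotspots of the same width class. The hotspots of 1000 bp or more of replicate 1 alone were promoters in 72.4% and distal in 26.1%, and those of replicate 2 alone in 84.1% and 14.7%.

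**Figure D2:**
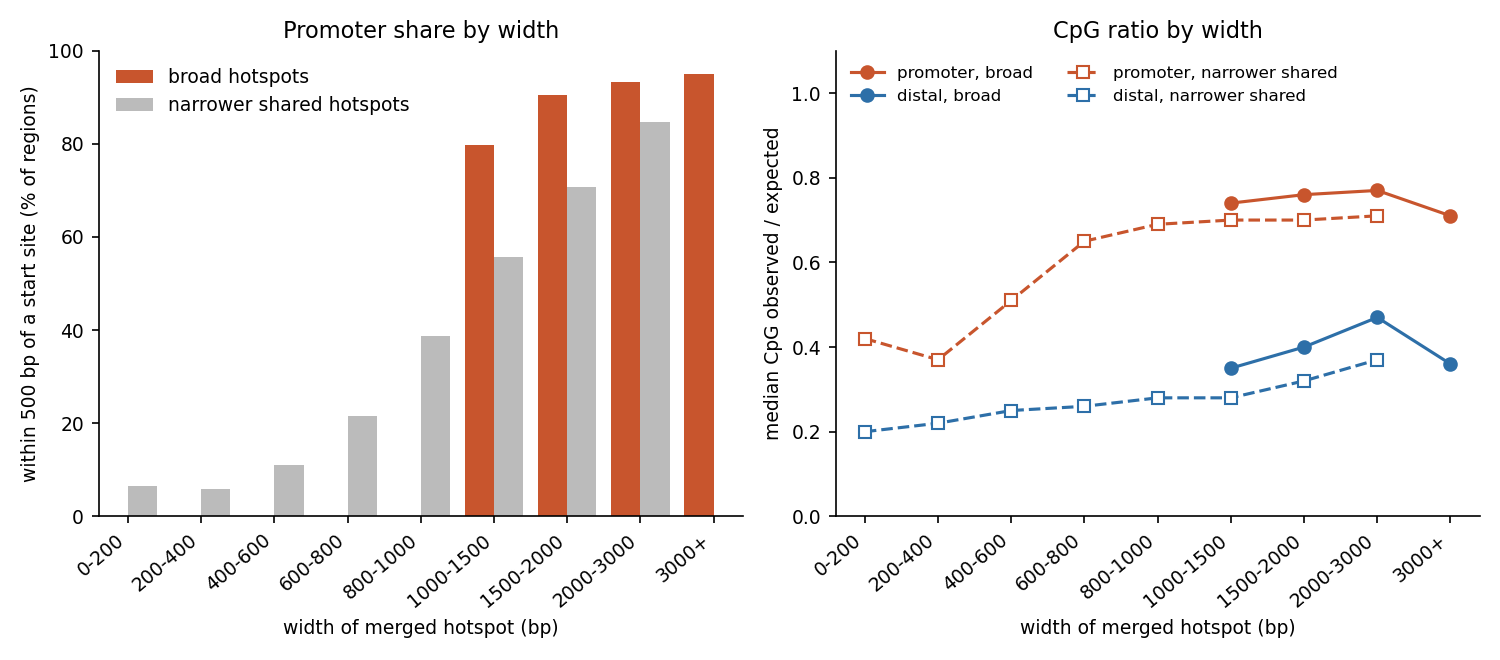
Share of regions within 500 bp of a start site (left, percent) and median CpG observed to expected ratio of promoter and distal regions (right), by width of the merged hotspot in bp. Bars of broad hotspots lie between 79.7% and 95.1%, each above the bar of narrower shared hotspots of the same width where one is drawn, and the CpG ratio of promoter regions lies above that of distal regions in every width class drawn. Narrower regions of 3000 bp or more were too few to be drawn.

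Broad promoters were rich in CpG. The CpG ratio, the number of CpG divided by that expected from the C and G content, had a median of 0.75 (quartiles 0.65 and 0.83) in broad promoter hotspots and 0.57 (0.33 and 0.75) in narrower ones. Broad promoter hotspots were island-like, meaning over 50% GC with a ratio over 0.6 across the whole region, in 83.6%, and narrower ones in 44.2%. Broad distal hotspots had a median ratio of 0.37 (0.26 and 0.53) with 16.1% island-like, and narrower distal hotspots had 0.23 (0.14 and 0.34) with 1.78%. These gaps in the ratio were smaller between regions of the same width class. At 1000 to 1500 bp the median was 0.74 in broad and 0.70 in narrower promoter hotspots, and 0.35 and 0.28 in distal ones. Narrower promoter hotspots of 200 to 400 bp had 0.37. Soft-masked repeats took a median of 7.22% of a broad promoter hotspot and 10.1% of a broad distal one, against 6.81% and 8.31% of narrower ones and 35.3% of the main chromosomes. No broad hotspot was more than 50% repeat, against 2.29% of narrower shared hotspots.

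A small set of broad promoters had few CpG. A ratio under 0.35 was found in 74 broad promoter hotspots (1.56%), against 27.1% of narrower promoter hotspots. The widest was at Nynrin, with 3061 bp in replicate 1, 2079 bp in replicate 2 and a ratio of 0.29. Others lay at Adamts12, which encodes a secreted metalloprotease (2138 and 1592 bp, ratio 0.27), and at Emp1, an epithelial membrane protein gene (1741 and 1382 bp, 0.24). Ccnd3, the gene of a G1 cyclin, had 1933 and 1463 bp (0.28), and Plec, which links intermediate filaments to cell junctions, had 1541 and 1534 bp (0.15). At Rara, a retinoic acid receptor gene, the region (1493 and 1523 bp, ratio 0.17) began 443 bp from a start site. Flnc, which encodes the actin crosslinker filamin C, had the lowest ratio among the 30 widest promoter regions, 0.37 over 4326 bp (4182 and 3992 bp).

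Most broad hotspots held several 150 bp peaks. The median was 3 peaks in both replicates for promoter and for distal regions, against 1 in narrower shared hotspots, and the highest number was 15 in replicate 1 and 16 in replicate 2. Per kb, peaks were less dense in the wider regions. No promoter or distal region of either set lacked a peak, so a region of small width has a high density by that alone. Narrower distal hotspots had a median width of 316 bp, and the part of width in the density was not tested. In replicate 1 the median was 1.76 peaks per kb in broad promoter and 1.82 in broad distal hotspots, against 2.40 and 3.27 in narrower ones, and in replicate 2 it was 1.75 and 1.84 against 2.43 and 3.30. Starts of neighbouring peaks within a region were 460 bp apart in replicate 1 (median, quartiles 340 and 580 bp) and 440 bp apart in replicate 2 (340 and 580 bp). The authors' score of the best peak, a whole number with no stated normalization, had a median of 132 in replicate 1 and 122 in replicate 2 for broad promoter hotspots, against 85 and 66 for narrower ones. Broad distal hotspots had 114 and 89, against 59 and 37. Broad hotspots held 5.40% of all peaks in replicate 1 and 7.51% in replicate 2. Of the 1100 highest-scoring peaks in replicate 1 (score 144 or more) they held 66.2%, and of the 1086 in replicate 2 (134 or more) 65.6%. Among broad promoter hotspots, width and best score were only loosely related, with Spearman values of 0.135 and 0.125 across regions of the same libraries. The Skida1 region, second in width, had best scores of 106 and 87, below the medians.

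Broad promoter hotspots reached further into the gene than before it. Among 2221 with starts of 1 protein-coding gene that lay within 100 bp of each other, the hotspot ended a median of 868 bp downstream (quartiles 679 and 1098 bp) and 633 bp upstream (445 and 868 bp). The downstream side was the longer in 69.0%, in 68.0% for the hotspot of replicate 1 alone and in 66.5% for that of replicate 2. In 9365 narrower shared hotspots chosen in the same way the medians were 360 bp downstream and 288 bp upstream, with 53.4% longer downstream. The start itself was covered by 97.52% of the broad hotspots but by 70.15% of the narrower ones. The part of this in the comparison was not tested. Of all bases in broad promoter hotspots, 41.1% were intronic, 28.1% intergenic, 23.2% untranslated or non-coding exon and 7.62% coding. The make-up of narrower promoter hotspots was close to this, with 37.2%, 30.1%, 24.7% and 7.99% in the same order.

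**Figure D3:**
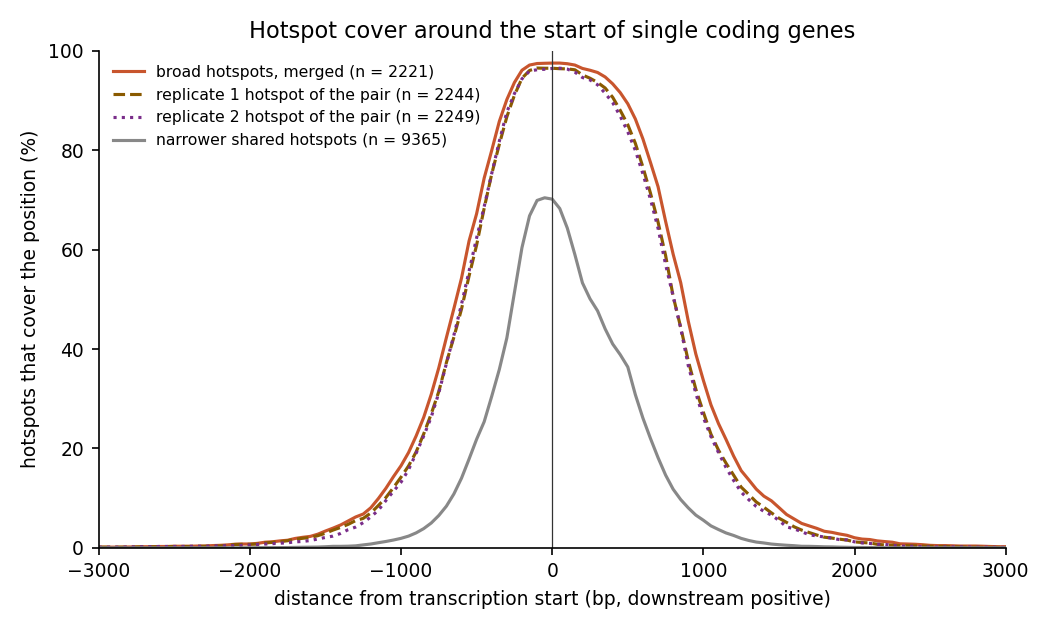
Percent of promoter hotspots that cover each position from 3000 bp upstream to 3000 bp downstream of the start site of single protein-coding genes, for broad hotspots merged and per replicate and for narrower shared hotspots. The curve of merged broad hotspots is higher downstream than upstream at 750 bp (65.69% downstream and 36.24% upstream) and at 1500 bp (8.1% and 3.38%), and the curves of the 2 replicates nearly coincide.

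Of the broad promoter hotspots, 4571 (96.2%) held a protein-coding start, and 637 of these (13.9%) held starts of 2 or more protein-coding genes. Starts on both strands were present in 593 (13.0%), against 4.81% of 13195 narrower shared hotspots with a protein-coding start. Median widths were 1538 bp in broad and 553 bp in narrower promoter hotspots. Wider regions meet a second start more often by their length alone, a part that was not tested. The region at Ddit3, a stress-response transcription factor gene, also held the start of Mbd6 (3992 and 3665 bp). That at Brd2, a bromodomain gene, also held the start of H2-DMa (4415 and 4343 bp). In 29 cases a whole short protein-coding gene lay inside a broad hotspot. Among them were the intronless linker histone genes H1fx (1217 bp in a region of 1967 bp) and Hist1h1b (743 bp in 2138 bp).

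The widest broad hotspot lay at Tnrc18, a gene of a large chromatin protein with a BAH domain. It was 7942 bp wide and reached from 6271 bp upstream to 1670 bp downstream of the start. Replicate 1 had it as 1 hotspot of 7924 bp and replicate 2 as 3 hotspots with short gaps that summed to 7926 bp, with 15 and 13 peaks. Skida1 was next by merged width (6798 bp) but, as given above, far narrower in replicate 1. Tgif1, a homeobox repressor that limits TGF-beta signalling, followed Skida1 with 6187 bp in replicate 1 and 6055 bp in replicate 2. Pcdh7, a protocadherin gene, had 5538 and 5425 bp. Mex3b, an RNA-binding protein gene, had 5882 and 5565 bp. Apart from Skida1, these regions had over 5000 bp in both replicates.

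Signalling genes were among the next. Spry2, a feedback inhibitor of receptor tyrosine kinase signalling, had 4973 bp in replicate 1 and 4964 bp in replicate 2. Efna5, the gene of a membrane-bound ephrin ligand, had 5089 and 4163 bp. Id2, an inhibitor of basic helix-loop-helix factors, had 4146 and 4465 bp in a region that ended 90 bp before its first start. Zmiz1, a transcription coactivator gene, had 3752 and 4999 bp. Genes for basal nuclear functions also appeared. Ubtf, a factor of ribosomal RNA transcription, had 4945 and 3555 bp, and Arid2, a subunit of a SWI/SNF complex, had 4505 and 4532 bp with the highest CpG ratio of the 30 widest promoter regions (0.95). Arrdc3, an arrestin-domain gene, had 3530 and 4539 bp. The neighbours Skida1 and Mllt10, a cofactor of a histone methyltransferase, and the genes Bahcc1 and Ptprg, a receptor tyrosine phosphatase, were wide in replicate 2 (6791, 4649, 4642 and 4613 bp) and much narrower in replicate 1 (2420, 1499, 1345 and 1833 bp).

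Broad hotspots also came in runs. A broad hotspot lay within 5000 bp of another in 247 cases, in 110 pairs and 9 groups of 3. The run at Zfp503, a zinc finger gene expressed in many embryonic tissues, held 10072 bp of broad hotspot within 13524 bp. The run at Id2 held 8791 bp within 9626 bp, and that at Ptch1, the receptor of hedgehog ligands, 5993 bp within 6806 bp. Other groups of 3 lay at Hes1, a Notch target, at Mef2d, at Zfp462, at Zfp36l2, at the neighbours Plekhg2 and Zfp36, and at the neighbours Rhof and Setd1b. Small gaps set some of these borders. In 23 cases neighbouring broad hotspots were separated by 150 bp or less, and at Zfp503 a gap of 4 bp separates the promoter region from the one over the gene body.

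**Figure D4:**
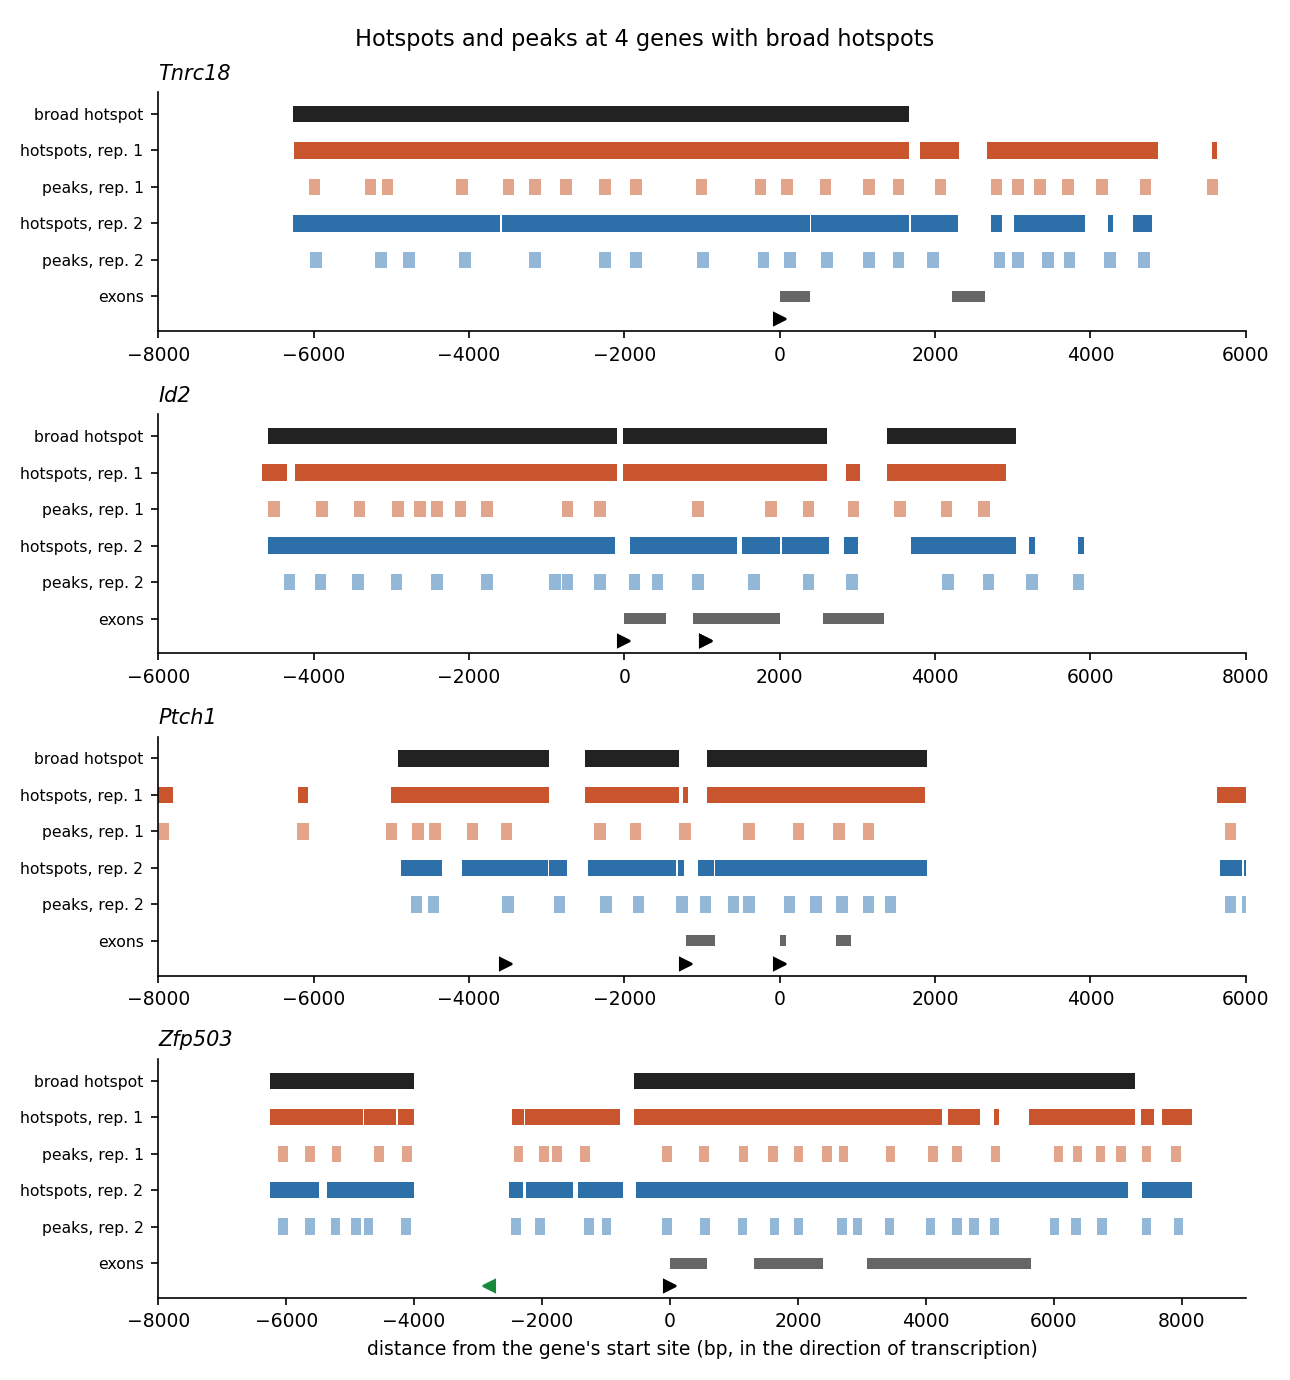
Maps of broad hotspots (black), hotspots and peaks of each replicate, and exons at Tnrc18, Id2, Ptch1 and Zfp503, by distance in bp from a start site of the gene in the direction of transcription; arrowheads mark start sites (black on the gene's strand, green on the other). At Tnrc18 the region extends 6271 bp upstream, at Ptch1 3 broad hotspots cover 3 starts or their surroundings, and at Zfp503 the hotspots run through most of the gene.

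Of 21938 protein-coding genes, 5166 (23.5%) had a broad promoter hotspot and 14956 (68.2%) had a shared promoter hotspot of any width, so 34.5% of those were broad. The gene lists below were set against these shares. Chromatin regulators had the highest share, with 30 of 36 genes broad (83.3%), and 36 of 36 had a shared promoter hotspot. The widest were Nsd1, a histone methyltransferase (3610 bp in replicate 1 and 3563 bp in replicate 2), Arid1b, a SWI/SNF subunit (2990 and 3145 bp), and Kat6b, a histone acetyltransferase (3164 and 2864 bp). The Polycomb genes Ezh2 (2400 and 2462 bp), Eed (1997 and 2085 bp) and Suz12 (2127 and 2277 bp) were all broad. Ctcf, the insulator factor, had 2423 and 2494 bp. A gene counts through any of its annotated starts, and of 136 listed genes with a broad promoter, 11 had it only at starts other than the principal one, among them Foxp1, Meis2, Runx1, Runx2, Sox6 and Wnt5a. The chromatin regulators without a broad promoter were Ankrd11, Crebbp, Hdac8, Satb1, Smarcb1 and Tet3. By their widest promoter hotspot, 4 of the 6 passed 1000 bp in 1 replicate, namely Satb1 (1615 bp in replicate 1 and 918 bp in replicate 2), Smarcb1 (1097 and 882 bp), Tet3 (915 and 1520 bp) and Ankrd11 (874 and 1097 bp). Crebbp had 971 and 864 bp, and Hdac8 564 and 644 bp.

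Signalling genes had a broad promoter in 30 of 47 cases (63.8%). The hedgehog receptor gene Ptch1 (2810 and 2730 bp) and the hedgehog effectors Gli1 (1298 and 1371 bp), Gli2 (3177 and 1037 bp) and Gli3 (1335 and 1533 bp) were broad. Shh, the ligand, was not, with 464 bp in replicate 1 and no promoter hotspot in replicate 2. Fgfr2, a fibroblast growth factor receptor gene, counted as broad (3770 and 3074 bp) through 1 annotated start that lies in the promoter of Ctbp2. The broad hotspot nearest to its principal start lay 253 kb from it. The feedback inhibitors Spry1, Spry2, Spry4 and Dusp6 were broad. Fgf8, a ligand of the facial epithelium, had no promoter hotspot in either replicate, while Fgf10, a mesenchymal ligand, had 1211 and 1220 bp. Among Wnt genes, Lef1, a nuclear effector, and Axin2, a feedback inhibitor, were broad, as was the ligand gene Wnt5a, whereas Wnt9b (397 and 370 bp) and Wnt11 (421 and 580 bp) were not. Aldh1a2, Bmp4 and Bmp7 were further genes without one. By their widest promoter hotspot, Bmp7 (1163 and 610 bp) and Fgfr1 (1954 and 720 bp) passed 1000 bp in replicate 1 only. Aldh1a2 (608 and 1345 bp), Id1 (742 and 1469 bp) and Tgfbr2 (961 and 1704 bp) did so in replicate 2 only. Bmp4, a bone morphogenetic protein gene, had 749 and 507 bp.

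Immediate early and feedback genes had a broad promoter in 21 of 41 cases (51.2%), and all 41 had a shared one. Myc, a growth regulator, led with 4363 bp in replicate 1 and 4205 bp in replicate 2, followed by Jun, a subunit of AP-1, with 4370 and 4101 bp. Dusp4, a phosphatase of MAP kinases, had 3740 and 3691 bp, Klf10, a TGF-beta induced factor, 3307 and 3376 bp, and Egr1 was broad as well. Fos, the partner of Jun, passed 1000 bp only in replicate 2 (772 and 1408 bp), and Fosb (654 and 680 bp) and Junb (436 and 819 bp) in neither. Housekeeping genes had 9 of 20 (45.0%), the widest at Gapdh, a glycolytic enzyme (3617 and 2653 bp, CpG ratio 0.42). Actb, the gene of cytoplasmic actin, passed the limit in replicate 1 only (1435 and 806 bp). Ribosomal protein genes, which are among the most highly transcribed, had 15 of 78 (19.2%), with the widest at Rpl7 in a region shared with Rdh10 (2610 and 2735 bp), although all 78 had a shared promoter hotspot. Histone genes had 7 of 64 (10.9%), some of which share a region because they are neighbours (Hist1h1e and Hist1h2be).

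Genes that define cell types of the face seldom had a broad promoter, although in most lists the majority had a shared one. The exceptions were erythroid genes, with a shared promoter hotspot in 5 of 18, and macrophage genes, with one in 5 of 16. Mesenchymal transcription factors had a shared promoter hotspot in 51 of 54 genes and a broad one in 9 (16.7%). The broad ones were Foxp1, Meis2, Nfib, Pbx3, Runx1, Six4, Tbx3, Twist1 and Zeb1. Nfib, a factor of lung, brain and muscle development, was the widest (2879 and 2203 bp), and Twist1, a regulator of cranial mesenchyme, had 1190 and 1144 bp. Alx1 and Alx4, homeobox genes of the frontonasal region, had widest single promoter hotspots of 779 and 643 bp, and of 551 and 406 bp. Msx1, a homeobox gene of tooth and palate, had 411 and 603 bp. Of 6 Dlx genes, the branchial arch homeobox genes, none was broad, the widest hotspots being 889 bp at Dlx2 in replicate 1 and 768 bp at Dlx5 in replicate 2. Six2 and Ebf2 passed 1000 bp in only 1 replicate each, Six2 in replicate 1 (2756 and 857 bp) and Ebf2 in replicate 2 (698 and 2265 bp).

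The low share of mesenchymal transcription factors rested partly on small gaps. When hotspots of a list separated by up to 150 bp were joined before the width rule, a choice made after the data were seen, the share was 35.2% (19 of 54) for this list, against 31.0% of all protein-coding genes. Within 2500 bp of the best start site these genes had a median of 1491 bp of hotspot in replicate 1 and 1226 bp in replicate 2, against 902 and 845 bp over all genes. Joining gaps gave 91.7% for chromatin regulators, 72.3% for signalling genes and 70.7% for immediate early and feedback genes.

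Epithelial genes had a shared promoter hotspot in 27 of 27 cases and a broad one in 2 (7.41%), at Klf4 (2151 and 1412 bp) and Epcam (1219 and 1215 bp). Cdh1, the epithelial cadherin, had 444 and 346 bp, Krt14, a basal keratin, 402 and 287 bp, and Trp63, the master factor of stratified epithelium, 256 and 231 bp. Cartilage genes had 2 of 20, at Sox9, the master factor of cartilage (1253 bp in both replicates), and Sox6, whereas Col2a1, the main cartilage collagen, had 735 and 446 bp. Bone genes had 2 of 19 (10.5%), at Runx2, the factor of osteoblast commitment (1297 and 1223 bp), and Atf4. The widest promoter hotspot of Sp7, which acts after Runx2, was 323 and 219 bp. Neurons had 4 of 23 (17.4%), glia and melanocytes 3 of 17 (17.6%), pericytes and smooth muscle 1 of 14 (7.14%), erythroid cells 1 of 18 (5.56%), endothelium 1 of 20 and skeletal muscle 1 of 22 (4.55%). Macrophages, lymphocytes, hepatocytes and Hox genes had none in 16, 16, 19 and 39 genes, and of the Hox genes, which are silent in most neural crest of the face, 14 had a narrower shared hotspot. Hepatocyte and lymphocyte genes, of cells not expected in the face, had a shared promoter hotspot of any width in 2 of 19 and 2 of 16 genes. In a mixed tissue, fewer cells with an open promoter and less opening per cell cannot be told apart.

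**Figure D5:**
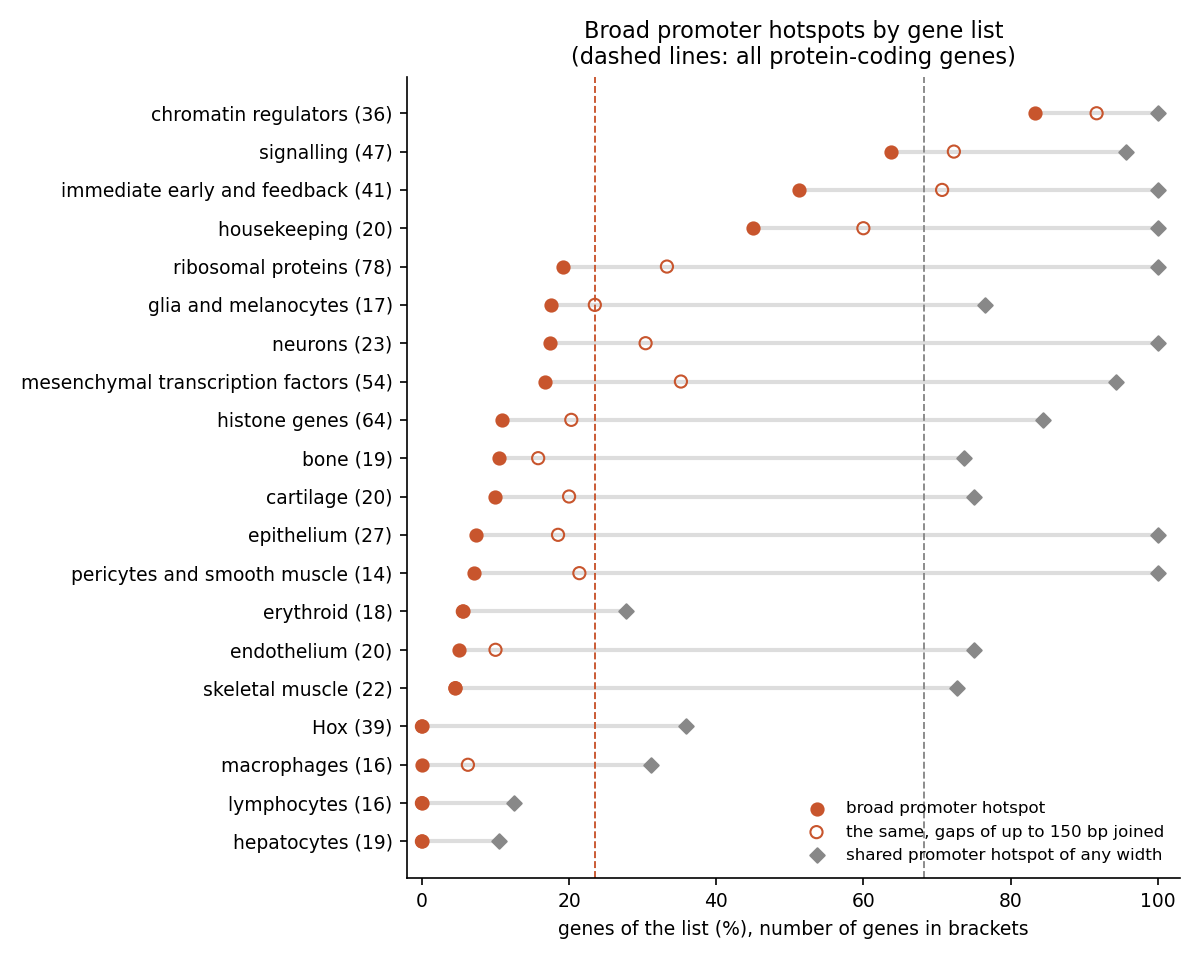
Percent of genes in each list with a broad promoter hotspot (filled circles), the same after gaps of up to 150 bp were joined (open circles) and with a shared promoter hotspot of any width (diamonds), with dashed lines at 23.5% and 68.2% for all protein-coding genes. Chromatin regulators, signalling, immediate early and feedback and housekeeping genes lie right of 23.5%, and with gaps joined ribosomal protein, neuron and mesenchymal transcription factor genes pass that line too, when the share of all protein-coding genes is 31.0%.

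The 752 distal broad hotspots were spread over many genes. By their midpoint, 445 (59.2%) were intergenic, 270 (35.9%) intronic, 20 in untranslated or non-coding exon and 17 in coding sequence. Of their bases, 59.2% were intergenic and 35.4% intronic, near the 56.6% and 39.5% of the main chromosomes. Narrower distal hotspots had 48.4% and 47.7%. They lay a median of 42.1 kb from the nearest protein-coding start (quartiles 13.2 and 109 kb, highest 842 kb), against 45.6 kb for narrower distal hotspots. Of them, 165 lay within 10 kb of a protein-coding start and 199 over 100 kb away. A shared promoter hotspot lay within 150 bp of 10 and within 1000 bp of 33. They were nearest to 669 genes (3.05% of protein-coding genes), of which 601 had 1 and 13 had 3 or more. Of the 669, 247 (36.9%) also had a broad promoter hotspot. The gene with the nearest start need not be the one a region acts on.

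The widest distal region, 5148 bp over the body of Zfp503, had 3795 bp in replicate 1 and 5039 bp in replicate 2 and is distal only by the gap of 4 bp noted above. The next lay 13.6 kb from Tex44 (3571 bp in replicate 1 and 2252 bp in replicate 2). The third lay 1.86 kb from Spaca6 and 1.04 kb from the microRNA gene Mir99b (3296 and 2287 bp). One lay 71.6 kb from Irf2bp2, an interferon-regulatory-factor cofactor gene (1731 and 3267 bp), and another 178 kb from Lrig3, a growth factor receptor regulator (2543 and 3080 bp). Regions near the type I collagen genes, the main matrix genes of bone and dermis, were also among them. That near Col1a1 (1925 and 2901 bp) lay 52.5 kb from its start and that near Col1a2 (2242 and 1447 bp) 47.4 kb. The promoter hotspots of these collagen genes themselves were not broad in both replicates, with 1281 and 395 bp at Col1a1 and 800 and 809 bp at Col1a2.

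Klf4, a factor of epidermal barrier formation, had 4 distal broad hotspots, between 118 and 580 kb from its start, all in intergenic sequence. The nearest was 1370 bp wide in replicate 1 and 1159 bp in replicate 2. Nfib had 3, between 255 and 503 kb away, of 1473 and 1467 bp, 1462 and 1211 bp, and 1226 and 1165 bp. Sox4, a factor of neural and mesenchymal progenitors, had 3, between 2.15 and 195 kb away, without a broad promoter hotspot. Gramd3 also had 4, and Bcas3, Chd9, Ndfip2, Smad7, Sorl1, Stx16, Tmc3, Zfp36l1 and Zfp608 had 3 each. Zfp36l1 encodes an RNA-binding protein that promotes messenger RNA decay, and Smad7 an inhibitor of TGF-beta signalling. In the lists, signalling genes had 20 distal broad hotspots at 16 of 47 genes, immediate early and feedback genes 22 at 15 of 41 and mesenchymal transcription factors 16 at 12 of 54, shares between 22.2% and 36.6%, against 3.05% of all protein-coding genes. A gene far from other coding starts is nearest to more sequence, and so to more distal regions of any width. The part of this in the shares was not tested. Chromatin regulators had one at 16.7% of genes and bone genes at 15.8%. Ribosomal protein genes had 5.13% and histone genes 3.12%, and no gene of the skeletal muscle, pericyte and smooth muscle, erythroid, hepatocyte or Hox lists had one. Those near facial regulators included regions at Dlx5 (1558 and 1077 bp, 2.02 kb away) and Ebf1 (1664 and 1139 bp, 519 kb).

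Island-like composition was found in 121 distal broad hotspots. After Zfp503 and Tex44, the widest lay 63.3 kb from Ppara, a nuclear receptor gene (2498 and 2695 bp, CpG ratio 0.87), 1.04 kb from the start of Fat1, an atypical cadherin gene (2519 and 2576 bp, 0.79), and 55.3 kb from Rbx1 (2486 and 2481 bp, 0.62). The Fat1 region is distal only by a gap of 1 bp, which separates it from the broad promoter hotspot of the same gene. One lay 42.2 kb from Chd7, a chromatin remodeller gene mutated in human CHARGE syndrome (1813 and 1877 bp, 0.95), and one 85.9 kb from Arid1b (1879 and 2001 bp, 0.81). No start site of the basic annotation lies within 1000 bp of any of them.

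Short sequence strings were counted on both strands of the 150 bp window at the peak whose score had the highest mean rank over the replicates. The windows lay in 4748 of 4751 broad promoter, 752 of 752 broad distal, 17112 of 17220 narrower promoter and 130072 of 131037 narrower distal hotspots. The other regions gave no window and were left out of these shares. A string is no proof of binding, and the strings can overlap in a window. The GC box of Sp and Klf factors, GGGCGG, was in 63.5% of broad promoter windows and 36.6% of narrower promoter windows, and in 23.0% of broad distal and 5.55% of narrower distal windows. Among distal windows that were not island-like it was in 17.9% of 631 broad and 5.05% of 127752 narrower ones. CCAAT, the NF-Y string, was in 31.7% of broad and 23.0% of narrower promoter windows and in 22.2% and 19.2% of distal ones. The core string of CTCF was in 2.66% of broad distal windows and 7.43% of narrower ones. The homeobox string TAATTA was in 2.13% of broad distal and 4.19% of narrower distal windows, and TGANTCA of AP-1 in 5.59% and 6.67%. The E-box CAGCTG, bound by myogenic factors, was in 19.7% of broad distal and 19.8% of narrower distal windows. Broad hotspots are richer in G and C over their whole length, with median GC of 59.7% at promoters and 51.2% at distal sites against 56.6% and 47.2% in narrower ones, and the part of this in the shares was not tested.

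Autosomes had 2.21 broad hotspots per Mb, from 1.66 on chromosome 14 to 3.55 on chromosome 11. The X chromosome had 109, or 0.637 per Mb, and the Y chromosome 1. Of X-linked protein-coding genes 9.92% had a broad promoter, against 24.4% of autosomal ones. Shared promoter hotspots of any width were present at 50.2% of X-linked genes, of which 19.7% were broad, against 69.6% of autosomal genes, of which 35.0% were broad. The widest on the X chromosome lay at Cask, a synaptic scaffold gene (3386 bp in replicate 1 and 2630 bp in replicate 2), and Usp9x, a deubiquitinase gene (2892 and 1987 bp). Kdm6a, a histone demethylase gene (2416 and 1659 bp), and Ddx3x, an RNA helicase gene (2319 and 2242 bp), both known to escape X inactivation in mouse, were broad as well. Males and females were pooled in unknown proportion, so the number of X chromosomes per sample is not known.

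Long non-coding genes without a protein-coding start within 500 bp accounted for 141 broad promoter hotspots. Lockd, downstream of the cell cycle inhibitor gene Cdkn1b, had 2483 bp in replicate 1 and 2657 bp in replicate 2. Dleu2, a microRNA host gene, had 2 regions, of 2524 and 2571 bp and of 2421 and 2267 bp. Ftx, a gene of the X inactivation centre, had 1270 and 2235 bp. Mir99ahg, another microRNA host gene, had 1758 and 1950 bp.

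Hotspots that were broad in 1 replicate only numbered 2827 in replicate 1 and 1348 in replicate 2. They overlapped a narrower hotspot of the other replicate in 99.5% and 99.8%, with medians of 1145 bp against 739 bp for those of replicate 1, and 1140 bp against 845 bp for those of replicate 2. Only 46.7% of those of replicate 1 were promoters, against 79.3% of those of replicate 2. Several lay at genes of facial development. Replicate 1 alone had Irx5 (3247 bp, against 997 bp) and Six2 (2756 bp, against 857 bp). Replicate 2 alone had Zic2 (2820 bp, against 798 bp) and Sp9 (2827 bp, against 439 bp). A region 5.74 kb from Dlx5 was 2837 bp wide in replicate 1 and overlapped no hotspot of replicate 2. The width given for the other replicate is that of its widest overlapping hotspot.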

How the data were processed

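DNase-seq was done on 2 biological replicates of 1 group. Per the deposited file descriptions, each replicate's peaks and hotspots were derived from its own filtered alignments in mm10 and not pooled. Aligner, caller and depth were not given in the sources used here, so no interval for depth could be set. Instruments are listed for replicate 1 only, so a batch cannot be told apart from the replicate. The deposited hotspot value is a −log10 q, which ends at 100, and the deposited peak value is the authors' score, with no stated normalization.

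From these lists, hotspots on chromosomes 1 to 19, X and Y were selected by width, paired, merged and set against the GENCODE M21 basic annotation and the RefSeq GRCm38 sequence, whose chromosomes no region passed. Coordinates are 1-based. Scripts (Python 3.11.15, NumPy 2.4.6, pandas 2.3.3, SciPy 1.17.1) were tested on simulated regions. Of 607 listed symbols 3 did not match. The regions and the gene lists were chosen with earlier results of these data known, and some lists share genes. Named genes are those nearest the 15 widest promoter and 15 widest distal regions, those with most distal regions, and in each list the widest and up to 3 genes without a broad promoter. Others were chosen after their values were seen. No test was made. Alternatives were other widths, overlap, promoter window, start sites, the ceiling of the −log10 q, each replicate alone and joined gaps.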

Additional observations from a re-analysis of the deposited data

How the results depend on the processing

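Of the 6 main values, the share at promoters and the share of distal regions kept their order under each alternative run. The number of broad hotspots was 9212 at a minimum of 800 bp and 1600 at 1500 bp. Each replicate alone gave 6943 to 8417 regions, 72.4% to 84.1% at promoters, 14.7% to 26.1% distal, 28.4% to 29.1% of genes with a broad promoter and a median distal CpG ratio of 0.30 to 0.39. The share of distal regions, 13.6% in both, was thus 26.1% in replicate 1 alone, and it was 21.5% at 800 bp, 6.19% at 1500 bp and 19.2% with gaps of up to 150 bp joined. The share of genes was 34.2% at 800 bp, 7.62% at 1500 bp and 31.0% when gaps of up to 150 bp were joined, the last an alternative chosen after the data were seen. The promoter CpG ratio was 0.74 at 800 bp, 0.76 at 1500 bp and 0.72 with gaps joined, and the distal one 0.44 at 1500 bp. A higher minimum keeps fewer regions by construction, and the cause of the other shifts was not tested. No paired analysis was possible because there is a single group. Depth is unknown, so a hotspot missing from, or narrower in, one list is not shown to differ.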
